A study of Mus musculus with 44 samples.

Results

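Immediate early genes are the genes a cell transcribes within minutes of a stimulus, before any new protein has to be made. In neurons, calcium entry and growth factor signals reach transcription factors already bound at these genes, such as CREB at the cAMP response element and serum response factor at the CArG box, and the messages are short-lived. Their products are transcription factors of the AP-1, EGR and NR4A families and fast-acting effectors, and in striatum their levels are widely read as a record of recent activity in medium spiny neurons.

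The genes examined were chosen by symbol: Fos, Fosb, Junb, Egr1, Egr2, Egr4, Nr4a1, Arc, Dusp1 and Ier2. They are 10 of 18101 genes named on the arrays of the series. The striatum of adult, untreated mice of the inbred strains C57BL/6J (B6) and DBA/2J (D2) was profiled on Affymetrix MOE430 2.0 arrays (10 B6 and 10 D2 mice, 5 females and 5 males of each strain) and on Illumina MouseRef-8 v2 arrays (12 B6 and 12 D2 males), with 1 array per mouse. The mice were naive, and the effect of handling and of the time to tissue collection on these rapidly induced messages was not tested. All 10 genes were measured on the Affymetrix arrays, with 11 probesets of which 10 passed the filter on low values. On the Illumina arrays 8 genes had a probe in the normalized table, and none was annotated to Nr4a1 or Ier2. Affymetrix values are log2 RMA values, where 1 unit is a doubling, and Illumina values are variance-stabilized (VST) values, which approach a log2 scale for bright probes. These are whole-tissue extracts, in which fewer cells of a type and less RNA per cell cannot be told apart.

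A few arrays stood apart. B6 array 64 lay between the strains on the Affymetrix arrays: at 148 probesets where the other 9 B6 arrays were all over 1 log2 unit away from every D2 array, its median value was 55.3% of the way from the D2 mean to the B6 mean, while for the other 19 Affymetrix arrays the same measure of their own strain was between 96.6% and 106.0%. Of the Illumina arrays, 4 D2 arrays (3, 5, 6 and 12) were dim, with mean bead signals of 599 to 985 against 1223 to 1822 over the 12 B6 arrays. The marker list of medium spiny neurons, the principal cells of the striatum, averaged 10.6 to 11.6 log2 over the B6 Affymetrix arrays and 10.5 to 11.1 log2 over the D2 arrays (11 of 13 markers with values). The cortex list averaged 7.48 to 9.35 log2 over B6 arrays and 8.41 to 9.64 log2 over D2 arrays (7 of 8 markers), so markers of this neighbouring region were measured in both strains.

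The sequence near the transcription start was searched for the letters of elements known from such genes. RefSeq promoter windows (GRCm38.p6, 250 bases before to 50 bases after a start) were found for 7 of the 10 genes. Egr1, Arc and Ier2 had no entry. The motifs searched, on both strands, were the cAMP response element TGACGTCA, its core TGACG, which is part of the full element, the CArG box, the early growth response element GCGTGGGCG, and TATAAA. All 7 genes held the core in at least 1 window, as did 23.0% of all 27025 genes with a window (20.8% of all 32851 windows). The full element was found in Dusp1 alone among the 7 (2.03% of all genes) and a CArG box in Egr2 alone (1.81% of all genes). TATAAA was found in Fos and Junb (15.7% of all genes), and the early growth response element in none of the 7 (0.707% of all genes). These are matches of letters, not measured sites. Sequence outside the windows was not searched, so a gene without a match here may hold one farther from its start. The windows of Fos, Nr4a1, Dusp1, Egr2 and Egr4 are shown because they hold the largest numbers of matches or, for Egr2 and Egr4, because their correlation was called by Pearson r in every set of arrays. Capitals mark the core, the full element or the CArG box on either strand, and positions count from the start, with -1 the base before it, to the first letter of a match.
Fos, chr12:85473640-85473939, plus strand: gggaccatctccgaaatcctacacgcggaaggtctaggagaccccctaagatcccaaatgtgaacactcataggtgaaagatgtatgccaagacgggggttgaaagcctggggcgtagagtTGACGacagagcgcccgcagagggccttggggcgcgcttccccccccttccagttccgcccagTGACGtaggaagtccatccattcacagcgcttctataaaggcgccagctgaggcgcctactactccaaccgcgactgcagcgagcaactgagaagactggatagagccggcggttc
Nr4a1, chr15:101266596-101266895, plus strand: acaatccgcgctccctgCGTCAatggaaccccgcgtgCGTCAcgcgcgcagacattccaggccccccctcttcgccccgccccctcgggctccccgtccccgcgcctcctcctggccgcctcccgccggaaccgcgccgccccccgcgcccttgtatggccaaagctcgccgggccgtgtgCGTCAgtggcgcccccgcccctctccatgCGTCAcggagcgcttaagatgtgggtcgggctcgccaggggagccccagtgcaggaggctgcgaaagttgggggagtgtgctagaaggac
Dusp1, chr17:26508423-26508722, minus strand: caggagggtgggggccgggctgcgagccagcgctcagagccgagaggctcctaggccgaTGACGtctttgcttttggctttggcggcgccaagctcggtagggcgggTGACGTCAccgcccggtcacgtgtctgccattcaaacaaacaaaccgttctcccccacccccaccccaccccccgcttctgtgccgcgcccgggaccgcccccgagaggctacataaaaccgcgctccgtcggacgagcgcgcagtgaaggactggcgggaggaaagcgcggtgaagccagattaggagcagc
Egr2, chr10:67537619-67537918, plus strand: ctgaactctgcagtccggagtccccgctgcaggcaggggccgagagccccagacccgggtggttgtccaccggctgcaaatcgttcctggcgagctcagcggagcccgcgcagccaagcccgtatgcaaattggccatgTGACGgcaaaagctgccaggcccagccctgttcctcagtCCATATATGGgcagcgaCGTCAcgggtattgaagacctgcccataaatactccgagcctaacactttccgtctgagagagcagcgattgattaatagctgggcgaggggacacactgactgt
Egr4, chr6:85513540-85513839, minus strand: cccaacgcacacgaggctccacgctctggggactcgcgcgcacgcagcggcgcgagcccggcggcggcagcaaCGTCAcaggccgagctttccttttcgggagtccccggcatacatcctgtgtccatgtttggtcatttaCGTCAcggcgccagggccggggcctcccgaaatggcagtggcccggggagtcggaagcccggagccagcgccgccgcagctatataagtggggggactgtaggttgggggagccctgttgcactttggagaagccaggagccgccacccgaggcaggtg
In Fos the cores stood at -129 and -66. Nr4a1 held 4 cores, at -233, -213, -69 and -40. In Dusp1 the full element stood at -143, with a further core at -191. Egr2 has 5 windows in the table, and the one shown holds cores at -111 and -55 on either side of a CArG box at -72. Egr4 held cores at -177 and -109. Fosb and Junb, not shown, each held 1 core, at -60 and -106.

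The first question was whether levels of these genes in naive mice differ between the strains. On the Affymetrix arrays none of the 11 probesets was called at an adjusted p under 0.01, while 9.7% of all 19437 probesets kept were called, and 0 of the 11 reached an unadjusted p under 0.05 in limma. The estimates of B6 minus D2 lay between -0.08 (Junb) and 0.23 log2 (1 of the Egr2 probesets), 10 of the 11 were above 0, and adjusted p-values were between 0.51 and 0.85. The values of B6 and D2 mice overlapped for every probeset. The intervals were wide: for Arc, the 95% interval ran from -0.30 to 0.71 log2. Without B6 array 64 the estimates ran from -0.06 to 0.27 log2 and none was called (lowest adjusted p = 0.47 in limma).

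**Figure D1:**
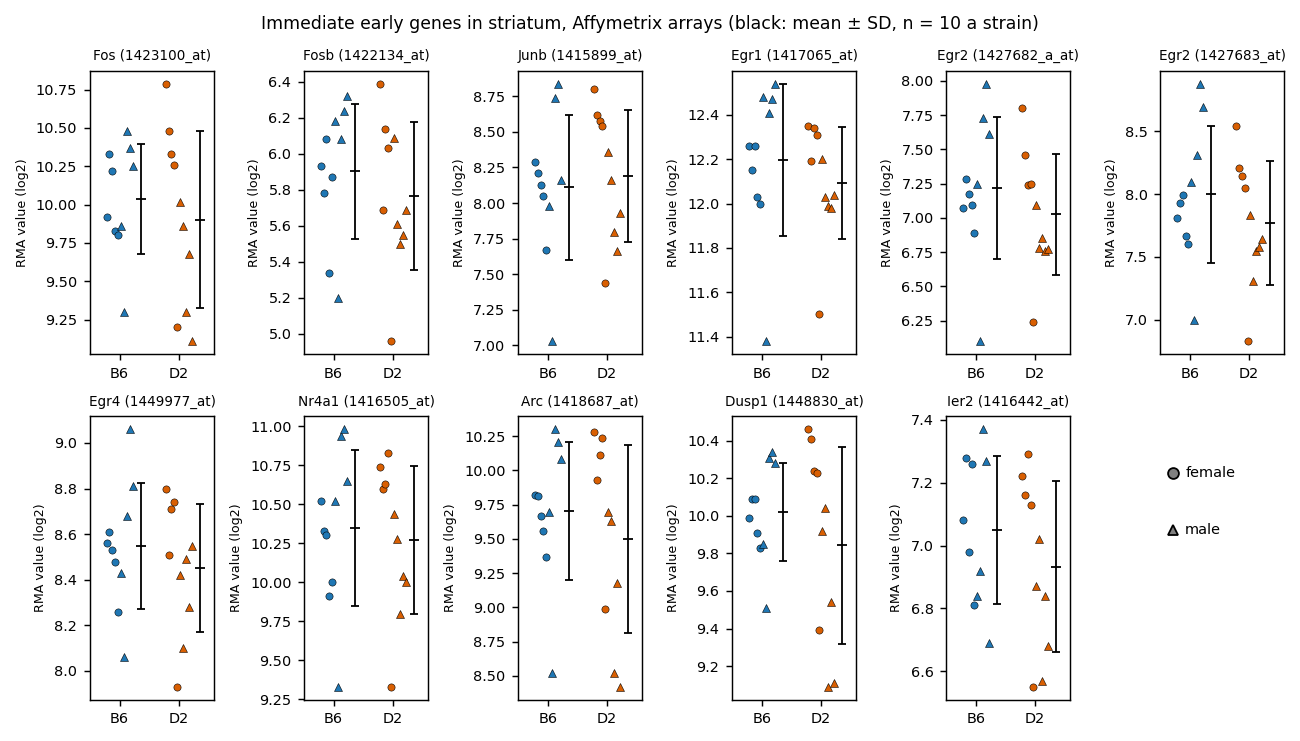
Log2 RMA value of each immediate early gene probeset on each Affymetrix array (vertical axes), with B6 mice left of D2 mice, circles for females, triangles for males, and the mean ± SD of each strain in black (n = 10 each). B6 and D2 overlap in every panel, and 1 B6 male and 1 D2 female lie lowest in most panels.

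Among the AP-1 genes, whose products pair to form the AP-1 transcription factor, Fos had a lowest, median and highest value of 9.30, 10.07 and 10.48 log2 in B6 mice, against 9.11, 9.94 and 10.79 log2 in D2 mice. Junb, a partner of Fos proteins, had 7.03, 8.14 and 8.84 log2 in B6 mice, against 7.44, 8.26 and 8.80 log2 in D2 mice. Both ranges are largely shared by the strains. Fosb, whose splice form ΔFosB is known for building up in striatum under repeated stimulation, was the 1 member below the filter on low values, at 5.90 ± 0.37 log2 in B6 mice and 5.76 ± 0.41 log2 in D2 mice (SD, n = 10 each).

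Egr1, a zinc-finger factor and a common activity marker, had a lowest, median and highest value of 11.38, 12.26 and 12.54 log2 in B6 mice against 11.50, 12.12 and 12.35 log2 in D2 mice. The 2 probesets of Egr2, a further EGR factor, gave like differences of 0.19 ± 0.20 and 0.23 ± 0.22 log2 (SE), and over mice of a strain they followed each other closely (r = 0.96 in B6 and 0.97 in D2, permutation p = 0.00027 and 7e-05 over 10 arrays each; rho = 0.88 and 0.89, permutation p = 0.0017 and 0.0011). Egr4 averaged 8.55 ± 0.28 log2 in B6 mice and 8.45 ± 0.28 log2 in D2 mice. Nr4a1, an orphan nuclear receptor, averaged 10.35 ± 0.50 log2 in B6 mice and 10.27 ± 0.48 log2 in D2 mice.

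Of the effectors, Arc, a cytoskeletal protein of active synapses, had 8.52, 9.76 and 10.30 log2 in B6 mice, against 8.42, 9.66 and 10.28 log2 in D2 mice. The extremes of the strains nearly coincide. Dusp1, a phosphatase that switches off MAP kinases, had 9.51, 10.04 and 10.34 log2 in B6 mice, against 9.09, 9.98 and 10.46 log2 in D2 mice. The D2 range of Dusp1 holds the whole B6 range. Ier2 averaged 7.05 ± 0.24 log2 in B6 mice and 6.93 ± 0.27 log2 in D2 mice.

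None of the 8 Illumina probes was called, while 9.77% of all 11072 probes kept were called, and 1 of the 8 (Fosb) reached an unadjusted p under 0.05 in limma. All 8 probes were detected on all 24 arrays, and the values of the strains overlapped for each. Estimates of B6 minus D2 lay between -0.30 (Junb) and 0.29 VST units (Egr4). Fosb came nearest to the threshold. Its lowest, median and highest values were 9.39, 9.77 and 10.15 VST units in B6 mice, against 9.13, 9.56 and 9.77 VST units in D2 mice. Of the 12 B6 mice, 7 lay above the highest D2 mouse, and the others overlapped with the D2 mice. The difference was 0.25 ± 0.08 VST units (SE), with an adjusted p of 0.024 in limma, which is past 0.05, where 16.4% of all probes are called, but not past 0.01. It passed 0.01 without B6 array 9 (0.29, adjusted p = 0.0071), and without the 4 dim D2 arrays it was 0.16 with an adjusted p of 0.15. The Affymetrix estimate for Fosb, in other mice and below the filter, was 0.14 ± 0.16 log2 (adjusted p = 0.69 in limma).

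**Figure D2:**
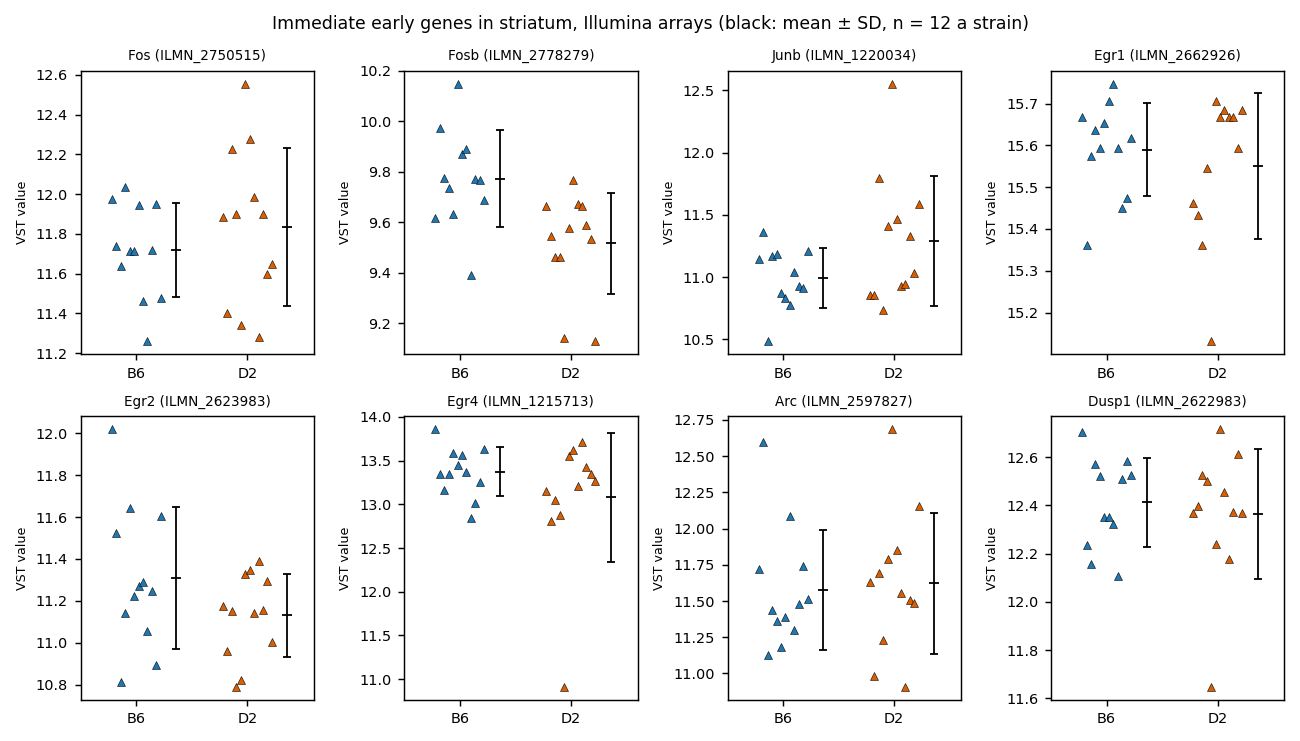
VST value of each immediate early gene probe on each Illumina array (vertical axes), with B6 mice left of D2 mice and the mean ± SD of each strain in black (n = 12 males each). Fosb is shifted up in B6 mice by 0.25 VST units with overlap, and single D2 arrays lie far below the others for Egr4 and far above them for Junb.

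Junb had a lowest, median and highest value of 10.49, 10.98 and 11.36 VST units in B6 mice, against 10.73, 11.18 and 12.55 VST units in D2 mice, a difference of -0.30 ± 0.16 (SE, adjusted p = 0.19). The highest D2 values belong to dim arrays 6 and 3, and without the 4 dim arrays the difference was -0.03 (adjusted p = 0.92). Egr4 had 12.8, 13.4 and 13.9 VST units in B6 mice, against 10.9, 13.2 and 13.7 VST units in D2 mice, where the lowest value came from dim array 5. Its difference was 0.29 ± 0.21 (SE, adjusted p = 0.36), or 0.10 without the 4 dim arrays (adjusted p = 0.69). Egr2 averaged 11.3 ± 0.34 VST units in B6 mice and 11.1 ± 0.20 VST units in D2 mice (SD, n = 12 each), with an adjusted p of 0.27. Egr1, which differed by 0.04 VST units, had bead signals up to 65594, near the top of the scale (72892 was the highest signal of any probe). Fos, Arc and Dusp1 differed by -0.11, -0.04 and 0.05 VST units. For these 4 genes the sign changed with the treatment of array brightness or with 1 array.

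**Figure D3:**
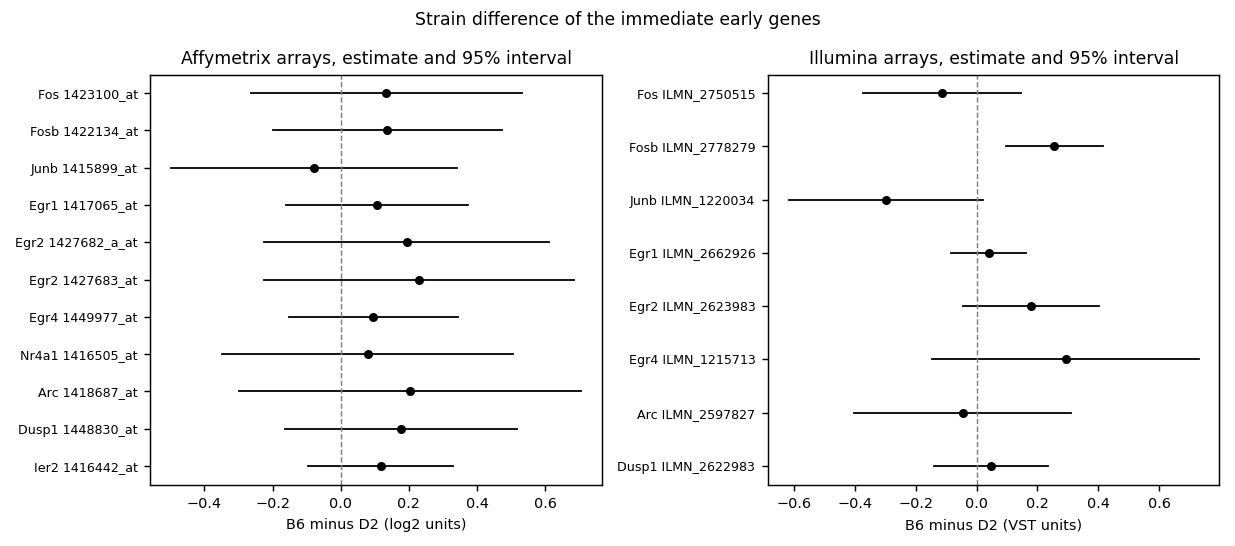
Estimated strain difference, B6 minus D2, of each immediate early gene with its 95% interval, in log2 units on the Affymetrix arrays (left) and VST units on the Illumina arrays (right), positive values being higher in B6. Every Affymetrix interval spans 0, and on the Illumina arrays the interval of Fosb alone lies on 1 side of 0.

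The Affymetrix design also allowed the sexes to be compared. None of the 11 probesets was called for sex (0.0257% of all probesets were called), with estimates of females minus males between -0.03 (Fosb) and 0.35 log2 (Arc). Whether the strain difference was the same in both sexes was tested as an interaction, the B6 minus D2 difference in females minus that in males. No probeset of any kind was called in limma (0% of 19437, with 347 at an unadjusted p under 0.05). All 11 members had estimates below 0, from -0.94 (Arc) to -0.21 (Egr1 and Ier2). Because these genes vary together over mice, the 11 signs are not independent observations. Arc averaged 9.65 ± 0.19 log2 in B6 females and 9.91 ± 0.53 log2 in D2 females, and 9.76 ± 0.73 log2 in B6 males and 9.09 ± 0.60 log2 in D2 males (SD, n = 5 each). Dusp1 averaged 9.98 ± 0.11 log2 in B6 females and 10.15 ± 0.43 log2 in D2 females, and 10.06 ± 0.37 log2 in B6 males and 9.54 ± 0.44 log2 in D2 males. In both genes D2 males were lowest, and males 78 and 80 gave the lowest D2 values. Their cortex lists were also low, with male 80 the lowest of the 10 D2 arrays at 8.41 log2 and male 78 the third lowest at 8.79 log2 (D2 median 9.05), and their part in the interaction was not tested. The interactions were -0.94 ± 0.45 for Arc and -0.68 ± 0.30 for Dusp1 (SE), with unadjusted p-values of 0.049 and 0.033 and an adjusted p of 1 for both in limma. Leaving out single arrays moved the unadjusted p between 0.0030 and 0.10 for Arc and between 0.0033 and 0.071 for Dusp1. The Illumina mice were all male. There Arc averaged 11.58 ± 0.41 VST units in B6 and 11.62 ± 0.49 in D2, and Dusp1 12.41 ± 0.19 in B6 and 12.36 ± 0.27 in D2 (SD).

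Mice of a strain differed from each other more in these genes than in most. On the Affymetrix arrays the within-group SD of the members was 0.25 (Ier2) to 0.55 log2 (Arc), with a median of 0.45, against a median of 0.15 over all probesets kept. Each Affymetrix member had a larger SD than 84.2% or more of the probesets kept. On the Illumina arrays the median SD was 0.30 VST units over the 8 members and 0.17 over all probes kept, and the members spanned a wider range, with Egr4 above 99.2% of probes and Egr1 above 36.7%. Both ends carry a limit. Egr4 had an SD of 0.28 VST units in B6 and 0.74 in D2, where dim array 5 deviated by -2.17. Egr1 had a median bead signal of 55108 in B6 and signals up to 65594, where the highest of any probe was 72892. Whether its signal was saturated was not tested, so its spread is uncertain. The strains were not distinguishable in this spread: tests of absolute deviations from the group median called no probeset or probe (0% on both arrays, with 349 and 664 features at an unadjusted p under 0.05 in limma). The nearest member was Junb on the Illumina arrays, which deviated by 0.21 VST units less in B6 mice (unadjusted p = 0.046, adjusted p = 0.71 in limma). Without the 4 dim D2 arrays the direction reversed, and Junb deviated by 0.02 VST units more in B6 mice.

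The variation was shared between genes on the Affymetrix arrays. In deviations from the mean of each strain and sex, the 45 pairs of the 10 genes had a median Pearson r of 0.87 in B6 mice and 0.86 in D2 mice (n = 10 arrays each), where the median over all pairs of 10778 genes was 0.02 in B6 and 0.03 in D2. An r of at least 0.7 was reached by 34 of 45 pairs (75.6%) in B6 and 38 of 45 (84.4%) in D2, and by 5.34% and 4.33% of all pairs of genes in the same arrays. Over all 146 pairs tested in both strains and on both arrays, 34 of 45 passed an adjusted permutation p of 0.05 in B6 and 36 of 45 in D2. These permutations exchanged all 10 arrays of a strain across the sexes, though deviations were taken within sex. Permuting within sex, which matches the centring but was chosen after seeing the data, 23 pairs passed in B6 and 22 in D2. The p-values and calls of single Affymetrix pairs given below are from permutation across the sexes. By rank, the median Spearman rho was 0.76 in B6 and 0.71 in D2, and 23 and 18 pairs passed.

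Among the closest pairs were several of an effector with a transcription factor. Arc and Nr4a1 had r = 0.97 in B6 (rho = 0.96, adjusted permutation p = 0.0020) and 0.86 in D2 (rho = 0.79, adjusted permutation p = 0.0037). Fos and Dusp1 had r = 0.96 in B6 (rho = 0.94, adjusted permutation p = 0.0020) and 0.94 in D2 (rho = 0.89, adjusted permutation p = 0.0020). Arc and Dusp1, both effectors, had r = 0.95 in B6 (rho = 0.91) and 0.96 in D2 (rho = 0.89), with the same adjusted permutation p of 0.0020. With the 2 arrays farthest from the median of the first gene left out, the lowest r of these 3 pairs in either strain was 0.84. Ier2 stood apart in B6, where its r with the other 9 genes ran from -0.14 to 0.60 with no pair called, while in D2 it ran from 0.53 to 0.92 with 7 pairs called. Egr4 stood apart in D2, with r = 0.35 to Arc and 0.32 to Dusp1, against 0.89 and 0.94 in B6. Whether these r differ between the strains was not tested.

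**Figure D4:**
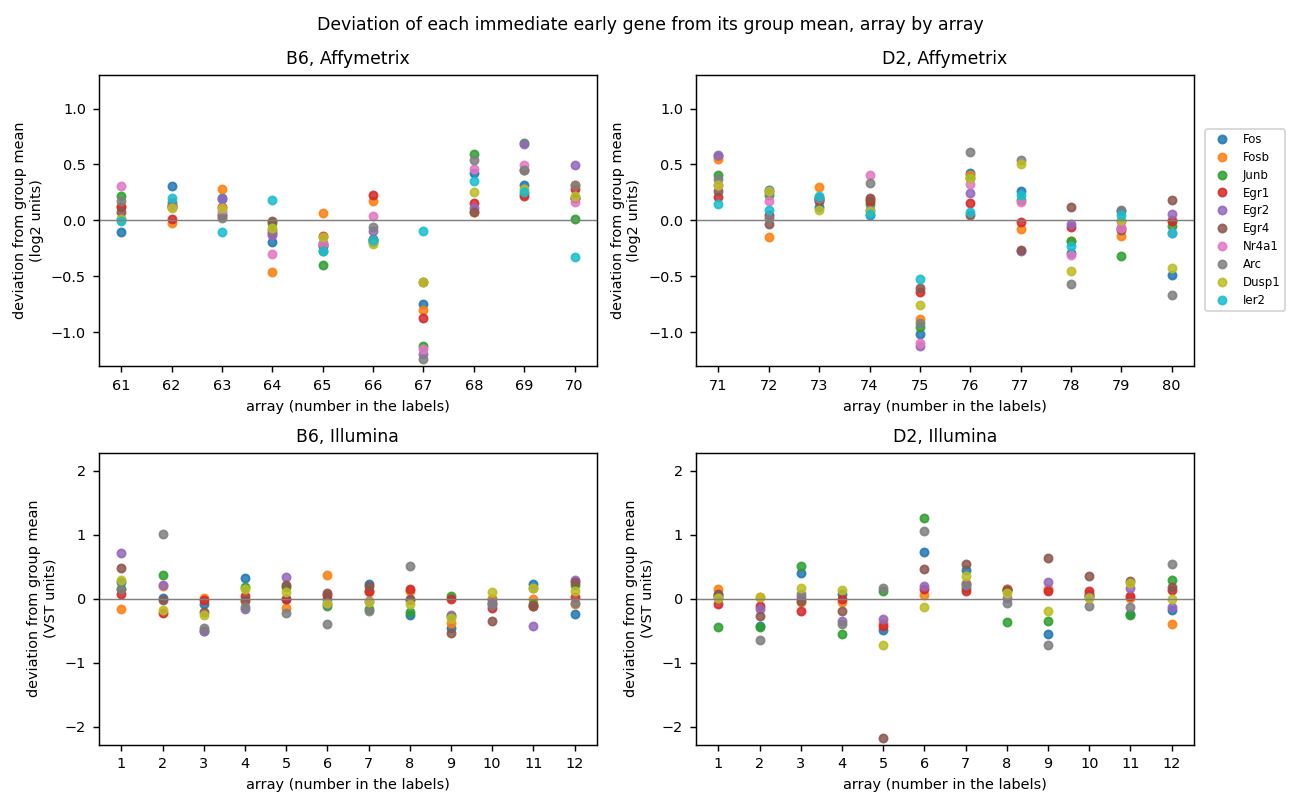
Deviation of each immediate early gene from the mean of its strain and sex, in log2 units (Affymetrix, upper row) and VST units (Illumina, lower row), for each array along the horizontal axis, with B6 left of D2 and a colour per gene. On the Affymetrix arrays all genes lie below 0 on B6 array 67 and D2 array 75, and on the Illumina arrays the genes scatter on both sides of 0 on most arrays.

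Much of this shared variation rested on 1 array in each strain. B6 male 67 was the lowest B6 array for 10 of 11 probesets, with a median deviation of -0.88 log2 and deviations down to -1.24 (Arc). D2 female 75 was the lowest D2 array for 8 of 11 probesets, with a median deviation of -0.92 log2, and all 11 lay below the mean of their group on both arrays. Without B6 array 67 the median r in B6 was 0.55 and 13 of 45 pairs passed. Without D2 array 75 the median r in D2 was 0.49 and 8 of 45 pairs passed. Leaving out any other array kept the median at 0.85 or above. With the 2 arrays farthest from the median of the first gene of each pair left out, the median r was 0.58 in B6 and 0.59 in D2, with 16 and 15 pairs at 0.7 or above. All 11 probesets lay above the mean of their group on B6 males 68 and 69, on D2 females 71, 73 and 74 and on D2 male 76. The means of B6 males and D2 females include arrays 67 and 75. These low arrays raise the deviations of the others in their groups, so such positive values are partly a product of centring. D2 female 71 was the highest of all D2 arrays for 9 of 11.

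Markers of neighbouring tissue moved with B6 array 67. Its cortex list averaged 7.48 log2, the lowest of the 10 B6 arrays, where the B6 median was 9.05. Array 70, also a B6 male, had the next lowest cortex list, at 8.15 log2. Of its 11 member probesets 10 lay above the mean of their group, with a median deviation of 0.22 log2. That mean includes array 67, whose low values raise the deviations of the other males. Among all 10 B6 arrays, array 70 was the highest for 2 of 11 probesets and the lowest for 1. On array 67 the medium spiny neuron list was also the lowest, at 10.64 log2 against a B6 median of 11.17, while its thalamus list (10.24 against a median of 8.38), choroid plexus list (9.32 against 7.74), astrocyte list (10.68 against 10.35) and oligodendrocyte list (11.94 against 11.56) were the highest of the B6 arrays. D2 array 75 differed less: its cortex list was second lowest at 8.59 log2 against a D2 median of 9.05, its medium spiny neuron list was at 10.96 against a median of 10.86, and its choroid plexus list was the highest D2 value at 9.31. The part of tissue composition in the low values of these arrays was not tested. Removing the mean of the cortex list by regression within each strain left a median r of 0.83 in B6 and 0.82 in D2.

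Over all 20 Affymetrix arrays after centring each group, r between members and the cortex list ran from 0.35 (Egr4) to 0.76 (Arc), with 8 of 10 at an unadjusted permutation p under 0.05 and none called over the 126 relations tested (lowest adjusted permutation p = 0.071). The share of all genes related to a marker list is not given, so the counts of members here have no background beside them. For Arc, rho was 0.64, and r was 0.55 without the 2 arrays farthest from the cortex median. With the choroid plexus list the r were all below 0, from -0.65 to -0.14, and Egr1 was called (r = -0.61, rho = -0.72, adjusted permutation p = 0.0082 for r and 0.020 for rho, r = -0.67 without the 2 farthest arrays). No such relation was called on the Illumina arrays. There the members' r ran from -0.37 to 0.57 with the cortex list (median -0.09, against 0.60 on the Affymetrix arrays). With the choroid plexus list they ran from -0.28 to 0.14 (median 0.02, against -0.50), where Egr1 was at 0.13. The lists are not the same on both arrays. Illumina values covered 6 of 8 cortex markers (4 past the filter) and 5 of 8 choroid plexus markers (3 past it). Affymetrix values covered 7 cortex markers (7 past the filter) and 8 choroid plexus markers (7 past it). On the Illumina arrays 1 of 56 relations was called, between Fos and the medium spiny neuron list (r = -0.71, rho = -0.67, adjusted permutation p = 0.0082 and 0.034, r = -0.69 without the 2 farthest, n = 24). On the Affymetrix arrays the members' r with the medium spiny neuron list ran from -0.18 to 0.60 with none called. With the astrocyte list all members' r were below 0 on both arrays. They ran from -0.62 to -0.37 (Affymetrix, median -0.52) and from -0.57 to -0.04 (Illumina, median -0.24). The oligodendrocyte list gave -0.57 to -0.30 on the Affymetrix arrays and -0.35 to 0.21 on the Illumina arrays. For blood vessels these were -0.29 to 0.10 and 0.04 to 0.44, and for microglia -0.51 to 0.05 and -0.53 to 0.24. No relation of these lists was called.

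On the Illumina arrays, run on other mice, r between members was lower. The 28 pairs of 8 genes had a median r of 0.17 in B6 and 0.40 in D2 (n = 12 arrays each), against 0.01 in B6 and 0.00 in D2 over all pairs of 7990 genes. An r of at least 0.7 was reached by 1 pair (3.57%) in B6 and 4 pairs (14.3%) in D2, where 1.79% and 7.8% of all pairs of genes did. An adjusted permutation p under 0.05 was reached by 2 pairs in B6 and 5 in D2, and for rho by 2 pairs in B6 and 3 in D2. The 2 kinds of array were normalized separately and differ in probe design, so the r of both are given side by side without a test of their difference.

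Of the 28 pairs measured on both arrays, 1 was called by Pearson r in all 4 sets of arrays, Egr2 and Egr4, and 5 others were called in 3 sets. By rank, Egr2 and Egr4 were called in every set but the D2 Affymetrix arrays. The Affymetrix calls are from permutation across the sexes. The share of all gene pairs called in all 4 sets was not computed, so this count has no background beside it. On the Affymetrix arrays it had r = 0.95 in B6 (rho = 0.91, adjusted permutation p = 0.0020 for r and 0.011 for rho) and 0.89 in D2 (rho = 0.62, adjusted permutation p = 0.0070 for r and 0.13 for rho). In the Illumina mice it had r = 0.75 in B6 (rho = 0.81, adjusted permutation p = 0.013 for r and 0.015 for rho) and 0.73 in D2 (rho = 0.88, adjusted permutation p = 0.0036 for r and 0.011 for rho). Leaving out the 2 arrays farthest from the Egr2 median gave an Affymetrix r of 0.84 in B6 and 0.57 in D2, and an Illumina r of 0.61 in B6 and 0.84 in D2. Leaving out single arrays kept r at 0.62 or above in each set but the D2 Affymetrix arrays, where the lowest was 0.54.

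The other pairs called on the Illumina arrays were 1 in B6 and 4 in D2. In B6 it was Junb and Egr2 (r = 0.65, rho = 0.55, adjusted permutation p = 0.042). In D2 they were Egr1 and Egr4 (r = 0.88, rho = 0.73, adjusted permutation p = 0.0037), Junb and Arc (r = 0.86, rho = 0.76, adjusted permutation p = 0.0036), Fosb and Egr2 (r = 0.68, rho = 0.67, adjusted permutation p = 0.033), and Fos and Arc (r = 0.65, rho = 0.55, adjusted permutation p = 0.040). Without the 2 farthest arrays these r were 0.52 in B6 and 0.76, 0.77, 0.59 and 0.22 in D2, so Fos and Arc rested on those arrays. The high end of Junb, Arc and Fos in D2 was dim array 6, where they stood 1.26, 1.06 and 0.72 VST units above the strain mean, and the low end of Egr4 was dim array 5, with a deviation of -2.17 VST units. Without the 4 dim arrays the median r in D2 was 0.49 and 2 pairs passed.

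**Figure D5:**
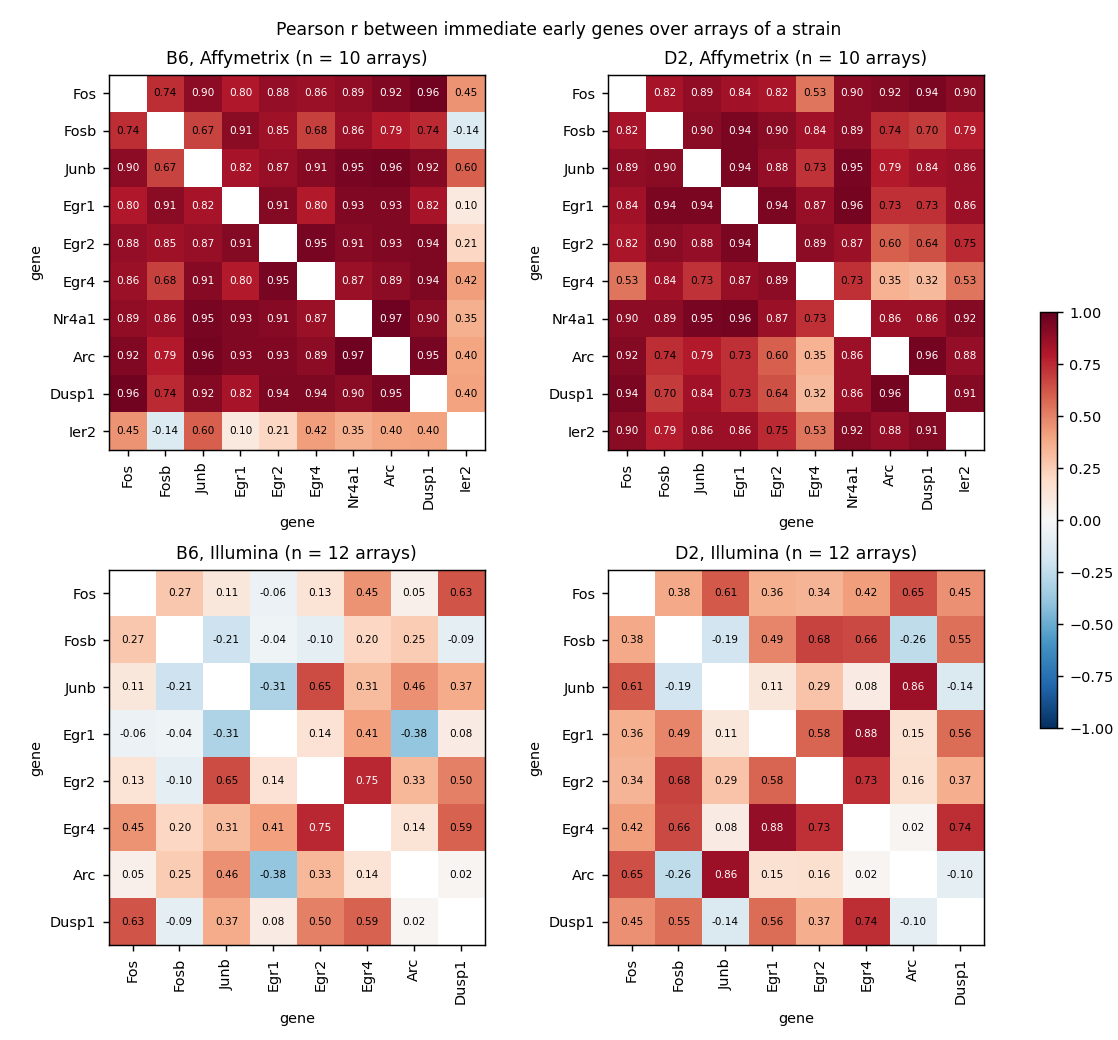
Pearson r between each pair of immediate early genes over the arrays of a strain, after subtracting group means, from -1 (blue) to 1 (red), with B6 left of D2, Affymetrix arrays in the upper row (n = 10 a strain) and Illumina arrays in the lower row (n = 12 a strain). The Affymetrix panels are nearly all red, apart from Ier2 in B6 and from Egr4 with Arc and Dusp1 in D2, and the Illumina panels are paler, with Egr2 and Egr4 at 0.75 in B6 and 0.73 in D2.

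Other genes of the same pathway were taken from lists of further rapid transcription factors, further rapid effectors and upstream regulators. Each gene was represented by its probeset or probe with the lowest adjusted p, and its other probesets are not given. Counts of genes taken this way are favoured over the share of single probesets set beside them. On the Affymetrix arrays 0 of 15 rapid transcription factors, 1 of 26 effectors and 2 of 19 regulators were called between the strains, where 9.7% of all probesets were called. At an unadjusted p under 0.05 in limma there were 5 transcription factors, 3 effectors and 4 regulators, against 27.2% of all probesets. The effector was Nptx2, a secreted synaptic pentraxin, at 7.62 ± 0.20 log2 in B6 mice and 7.002 ± 0.36 log2 in D2 mice (difference 0.62, adjusted p = 0.00091 in limma). The regulators were the kinases Camk4, at 8.81 ± 0.28 log2 in B6 mice and 7.80 ± 0.20 log2 in D2 mice (adjusted p = 2.9e-07), and Prkaca, at 9.36 ± 0.11 log2 in B6 mice and 9.60 ± 0.12 log2 in D2 mice (adjusted p = 0.0029). The Illumina probe of Camk4 was called the opposite way, at 8.95 ± 0.08 VST units in B6 mice and 9.24 ± 0.07 VST units in D2 mice (adjusted p = 1.1e-06). The calls come from other mice, another kind of array and another probe, and Illumina mice were all male, so the source of the opposite signs cannot be told apart.

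On the Illumina arrays, again by the probe of each gene with the lowest adjusted p, 3 of 12 rapid transcription factors were called. So were 1 of 20 effectors and 1 of 15 regulators, where 9.77% of all probes were called. The circadian repressor Bhlhe40 averaged 12.4 ± 0.38 VST units in B6 mice and 11.3 ± 0.44 VST units in D2 mice (adjusted p = 3.2e-06), yet on the Affymetrix arrays it differed by -0.03 log2 (adjusted p = 0.88). Csrnp1 averaged 10.2 ± 0.18 VST units in B6 mice and 9.43 ± 0.09 VST units in D2 mice (adjusted p = 7.1e-11), and by 0.01 log2 on the Affymetrix arrays (adjusted p = 0.94). Klf2, a Krüppel-like factor, was higher in B6 by 0.19 VST units (adjusted p = 0.0041) and by 0.40 log2 on the Affymetrix arrays (adjusted p = 0.020). The secreted matrix protein Ccn2 was lower in B6 (difference -0.44 VST units, adjusted p = 0.0080), and differed by -0.22 log2 on the Affymetrix arrays (adjusted p = 0.65). Prkaca and Nptx2 were not called on the Illumina arrays (-0.11 VST units each, adjusted p = 0.22 and 0.56).

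The genes whose pattern over arrays was most like that of the members were ranked by their mean r with the members, as a description. Of 10769 other genes on the Affymetrix arrays the first 10 were Ankrd33b (mean r = 0.81), the circadian repressor Cry2 (0.78), the adenylyl cyclase Adcy9 (0.76), the ephrin ligand Efna3 (0.76), the Eph receptor Ephb6 (0.75), Trib1 (0.75), Btg2 (0.74), Pcnx2 (0.74), the phosphatase Dusp14 (0.74) and Rasl11b (0.73), over 20 arrays. Trib1, Btg2 and Dusp14 are on the list of rapid effectors. Without B6 array 67 and D2 array 75, chosen after their values were seen, the mean r of these 10 genes ran from 0.20 (Adcy9) to 0.55 (Cry2, Efna3 and Btg2), with the other 6 between 0.32 (Dusp14) and 0.48 (Ankrd33b and Pcnx2). The median mean r was 0.56 over the 15 further rapid transcription factors, 0.42 over the 26 rapid effectors and 0.24 over the 19 upstream regulators, against 0.01 over all genes. The 7 cortex markers had a median of 0.56 too, the 11 medium spiny neuron markers 0.33, and the 6 thalamus markers -0.46, so the median of the cortex markers matched that of the rapid transcription factors. Without B6 array 67 and D2 array 75 the medians were 0.26 for the transcription factors, 0.21 for the effectors, 0.098 for the regulators and 0.21 for the cortex markers, against 0.02 over all genes. Over the 24 Illumina arrays and 7982 genes, the first 10 were Ifrd1 (mean r = 0.49), Pibf1 (0.47), Pxmp4 (0.47), Taf6 (0.47), the zinc exporter Slc30a1 (0.46), Cdc42se2 (0.46), the rapid effector Gadd45g (0.45), Kctd20 (0.44), Tmem185b (0.44) and Mtrf1 (0.44). The Illumina medians were 0.18 over 12 rapid transcription factors, 0.088 over 20 effectors, 0.055 over 15 regulators and 0.027 over 4 cortex markers, against 0.01 over all genes. None of the first 50 genes on the Affymetrix arrays was among the first 50 on the Illumina arrays. Lists of 50 drawn at random from 10769 and 7982 genes would mostly share none too, so this count carries little information.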

How the data were processed

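Striatal RNA was measured on Affymetrix arrays (20 mice) and Illumina arrays (24 mice), 1 array per mouse. The authors deposited Affymetrix values as log2 RMA values, made after masking probes over SNPs. Their methods used MAS5 5.0 calls, which were not used here. The authors deposited Illumina values after variance stabilization (VST) and between-array normalization, with bead signal intensities and detection p-values from GenomeStudio, which served filters and alternatives only.

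The members and all lists were chosen with earlier results of these data known. Affymetrix probesets in the upper 50% by mean, and Illumina probes with a detection p under 0.05 on all arrays of at least 1 strain, were kept. A member below the filter was taken from the fit without it. Differences were fitted with limma 3.58.1 in R 4.3.3. The Affymetrix model included sex. A difference was called where its p, adjusted by the Benjamini-Hochberg method over all features kept, was under 0.01. P-values measure the spread between mice, 1 array each. The number of arrays limits the precision.

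Correlations were taken between deviations from group means, with the brightest probe of each gene, 2-sided permutation tests (100000 permutations, for which 1e-05 is the smallest p), and adjustment over 146 pairs or 126 marker relations, called under 0.05. Marker relations were permuted within groups, and pairs of members over all arrays of a strain. Scripts were tested on simulated data. Named are all members, called genes of the 3 pathway lists, and the 10 genes most like the members on each array. Strain differences of the pathway lists are those of the probe of each gene with the lowest adjusted p. Alternatives covered filters, normalization, covariates, array weights and leaving out arrays. Promoters are those of RefSeq (GRCm38.p6).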

Additional observations from a re-analysis of the deposited data

Results flagged for a closer look

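Of 22 sets of 10 Affymetrix values (11 probesets in each strain), 3 held a lowest array whose gap to the next, as a share of the range of the set, was above the 95% critical value of 0.466 for 10 values. Chance alone gives about 1 in 20 such sets. Egr1 was flagged in both strains, with a share of 0.534 for B6 array 67 (11.38 log2, next lowest 12.00) and 0.565 for D2 array 75 (11.50 log2, next lowest 11.98). Arc was flagged in B6, with a share of 0.478 for array 67 (8.52 log2, next lowest 9.37). The sets share arrays, so the 3 are not independent of each other. Illumina groups of 12 arrays were not examined in this way.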

How the results depend on the processing

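None of the 11 Affymetrix members was called for strain, sex, interaction or spread under any of the alternatives run. Of 330 Affymetrix strain differences recomputed over 30 alternatives, 319 kept their direction and their side of the threshold. In females alone 8 of the others were below 0, at -0.26 (Arc), -0.21 (Nr4a1), -0.19 (Fos), -0.16 (Dusp1), -0.15 and -0.098 (Egr2), -0.050 (Egr4) and -0.042 (Fosb), and in males alone Junb was at 0.17. Leaving out single arrays moved Junb between -0.18 and 0.038 (without B6 array 67) and Nr4a1 between -0.033 (without D2 array 75) and 0.20. Of 280 Illumina strain differences over 35 alternatives, 267 kept both. Fosb was called, making 1 of 8 members, at an adjusted p under 0.05 (0.25) and without B6 array 9 (0.29), so that leaving out single arrays gave between 0 and 1 called members. Over all alternatives its difference ran from 0.16 to 0.53 and its adjusted p from 0.0071 to 0.15. Arc turned positive with median-centred bead signals (0.26), without the 4 dim D2 arrays (0.18), with mean bead signal as a covariate (0.15), with array weights (0.012) and without D2 array 6 (0.052) or 12 (0.0036), with a range of -0.14 to 0.052 over single arrays left out. Dusp1 turned negative without the dim arrays (-0.038), with array weights (-0.026) and without D2 array 5 (-0.018, up to 0.079 without another array), Egr1 without the dim arrays (-0.00041), and Fos turned positive with median-centred bead signals (0.18). The Junb spread difference was 0.017 without the dim arrays. The cause of these changes was not tested.

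Median r between members kept within its leave-one-out error except without B6 array 67 (0.55, highest 0.90 without another array) and D2 array 75 (0.49, highest 0.90). On the Affymetrix arrays that error was itself widened by these 2 arrays, so staying within it says little. The rank medians of 0.76 in B6 and 0.71 in D2 also counted as within it. Leaving out single arrays gave 13 to 35 called pairs in B6 and 8 to 41 in D2 on the Affymetrix arrays, and 1 to 4 in B6 and 3 to 9 in D2 on the Illumina arrays, where median r ran from 0.12 to 0.24 and from 0.25 to 0.53. In D2, 18 Affymetrix and 3 Illumina pairs were called by rank, and 2 Illumina pairs without the dim arrays. With the cortex mean removed 4 Illumina pairs were called in B6. Permuting within sex, an alternative chosen after seeing the data, called 23 Affymetrix pairs in B6 and 22 in D2. The probe with the largest spread was the brightest probe for every gene, so that alternative gave no other value.

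The strain calls over all features numbered 862 in the upper 25%, 616 in females, 767 in males and 3002 at 0.05, against 1885, on the Affymetrix arrays, and 1820 at 0.05, against 1082, on the Illumina arrays. Sex calls numbered 16 without a filter and 0 in the upper 25% against 5. Same-numbered Illumina arrays of the strains did not deviate together (median r = -0.10, 3 of 12 over 0.1, 0 of 12 best with their own number), and with the number as a replicate block 0 of 8 members were called and 789 of all probes.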
